A study of Mus musculus with 6 samples.

Results

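Red cell genes were followed in whole lungs of mouse embryos at E14.5, in 3 mutant and 3 control embryos on 1 single-colour array each. The set held 8 genes of red cells, chosen with earlier results of these data known: Alas2, Slc4a1, Epb42, Trim10, Klf1, Gata1, Ahsp and Rhag. A gene was measured where an array feature carried its symbol as the only annotated one. This gave 7 of the 8, each with 1 feature, among 19946 genes in all. Ahsp was not analysed here. Mutant embryos carried Shh-cre with flox/flox alleles of Foxp1, Foxp2 and Foxp4 (the genotype label writes Foxp1 a second time where the title of the series names Foxp2), and control embryos carried Shh-Cre alone. Both groups thus express Cre from the Shh locus, which is active in the endoderm that forms the lung epithelium and not in blood, and both were on a mixture of C57BL/6 and 129X1. The study asked what the Foxp1/2/4 transcription factors do for the identity of lung endoderm. The deposited values are log2 expression levels from RMA, the robust multi-array average, so 1 unit is a doubling.

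Red cells of the midgestation mouse come from successive waves. Primitive red cells arise in the yolk sac, circulate with their nuclei and make embryonic globins, and definitive red cells arise in the fetal liver and make adult globins. A maturing red cell fills itself with heme and globin, takes up iron, and builds a membrane organised around the anion exchanger band 3 and the spectrin skeleton. The transcription factors GATA1 and KLF1 switch on much of this set. The lung makes no red cells, so their RNA in a lung comes from the blood held in the tissue. In a bulk sample fewer red cells and less RNA per cell cannot be told apart, and blood content can differ between dissections. Each value is therefore given per array.

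Of the 7 measured genes, 5 were lower in mutant lungs, 0 were higher and 2 did not pass the threshold, an adjusted p of 0.05 in limma's moderated test over all 19946 genes. Over all genes 7.66% were called, 3.83% lower and 3.84% higher. The median log2 difference, mutant minus control, was -0.43 over the 7 genes and -0.01 over all genes. Because the genes were chosen with earlier results of these data known, these shares do not test the set against other genes. The 5 genes that fell encode the heme enzyme Alas2, the membrane proteins Slc4a1, Epb42 and Rhag, and Trim10. The 2 that did not pass encode the transcription factors Klf1 and Gata1. All 3 mutant arrays lay below all 3 control arrays in 6 of the 7 genes, all but Klf1, as in 12.6% of all genes.

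**Figure D1:**
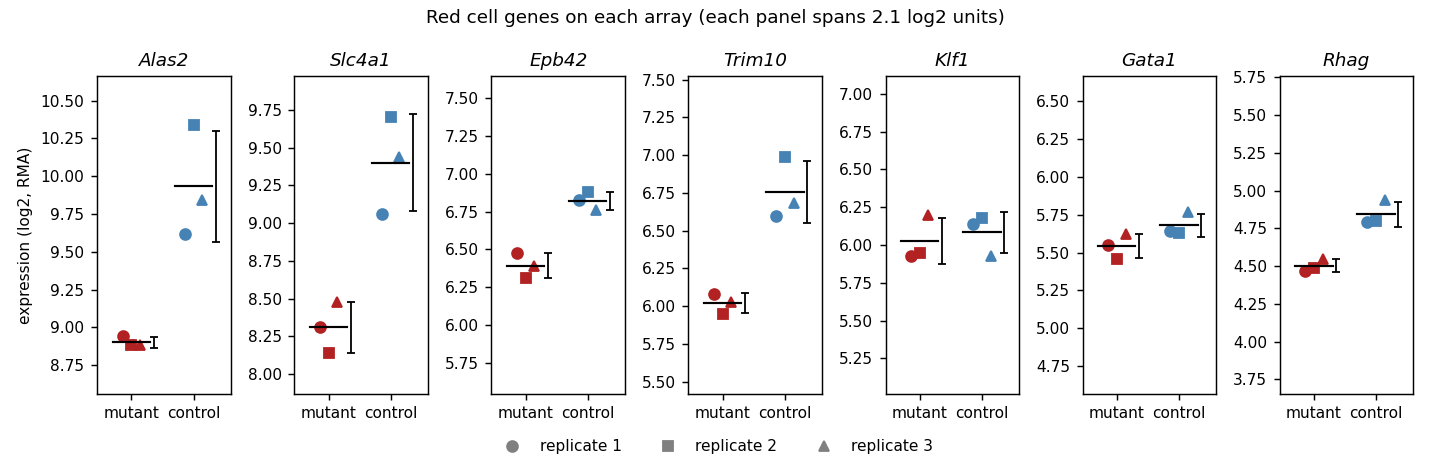
Log2 expression of the 7 measured red cell genes on each array, with mutant lungs left of control lungs in every panel; symbols mark the replicate number, the long bar the group mean and the error bar the SD of 3 arrays. Alas2, Slc4a1 and Trim10 show the widest gaps and a control 2 above the other controls, while the groups overlap in Klf1.

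Alas2 encodes the red cell form of 5-aminolevulinate synthase, the first and rate-limiting enzyme of heme synthesis in red cells. It read 8.94, 8.88 and 8.88 in mutants 1 to 3, against 9.62, 10.34 and 9.84 in controls 1 to 3. The mutants lay within 0.06 units of each other, while control 2 stood above the other controls. The log2 difference was -1.04 ± 0.16 (SE, n = 3 per group), or 2.05-fold lower in mutants (adjusted p = 0.00674). Without control 2 it was -0.83 (adjusted p = 0.00317).

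The anion exchanger Slc4a1 (band 3), which swaps chloride for bicarbonate and anchors the membrane skeleton, read 8.31, 8.14 and 8.48 in mutants 1 to 3, against 9.06, 9.70 and 9.44 in controls 1 to 3. It was 2.13-fold lower in mutants (-1.09 ± 0.16, adjusted p = 0.00507). Ranked by size, Slc4a1 was number 91 and Alas2 number 109 of the 763 genes called lower. Epb42 encodes protein 4.2, which ties band 3 to the skeleton. It read 6.48, 6.31 and 6.39 in mutants, against 6.83, 6.88 and 6.76 in controls, with a close spread in both groups (SD 0.09 and 0.06). The difference was -0.43 ± 0.07, or 1.35-fold (adjusted p = 0.00633). Rhag, the Rh-associated glycoprotein, carries ammonia and gas and holds the Rh complex in the membrane. It read 4.47, 4.49 and 4.55 in mutants and 4.79, 4.80 and 4.94 in controls (-0.34 ± 0.06, adjusted p = 0.0158). These are dim readings, in the range of 4.15 to 4.96 that 3 Y-linked genes gave on the 4 arrays of female embryos, so the Rhag feature is not shown to read above background and the size of its difference is uncertain. Its call ended without control 2 (adjusted p = 0.053) and without control 3 (adjusted p = 0.0704).

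Trim10 (also Herf1) encodes a RING finger protein of the erythroid lineage that is needed for terminal red cell differentiation in mouse cell culture. It read 6.08, 5.95 and 6.03 in mutants 1 to 3, against 6.60, 6.99 and 6.68 in controls 1 to 3. Mutants and controls did not overlap, and control 2 was again the highest array. Trim10 was 1.67-fold lower in mutants (-0.74 ± 0.10, adjusted p = 0.00433), or -0.62 without control 2 (adjusted p = 0.00643).

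Klf1, the erythroid Krüppel-like factor that binds CACCC elements of the adult beta globin promoter, read 5.93, 5.95 and 6.20 in mutants, against 6.14, 6.18 and 5.93 in controls. The groups overlapped, with mutant 3 the highest array and control 3 at the level of the lowest mutants. The difference was -0.06 ± 0.10 (adjusted p = 0.814), with a 95% interval from -0.28 to 0.16. Gata1, the zinc finger factor required for red cell and megakaryocyte differentiation, read 5.55, 5.46 and 5.62 in mutants and 5.64, 5.63 and 5.77 in controls. Its mutant values were the lower ones by a small margin, at -0.14 ± 0.07 (adjusted p = 0.317, 95% interval from -0.29 to 0.02). Both intervals exclude a fall as large as that of Alas2, Slc4a1 or Trim10 on this log2 scale, but both features are dim (31.3% of genes read lower than Klf1 and 23.9% lower than Gata1), and RMA compresses the differences of dim features.

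Promoters were searched for GATA and CACCC-type words because GATA1 and KLF1 switch on much of this set. Whether either factor had a part in the falls was not tested. The RefSeq promoter table of build GRCm38.p6, 250 bases before to 50 after each start, held 6 of the 7 genes: Alas2, Epb42, Trim10, Klf1, Gata1 and Rhag. Slc4a1 had no entry. The GATA words AGATAA and TGATAA, searched on both strands, were present in 5 of the 6 windows, all but that of Gata1, and in 18.6% of the 32851 windows in the table. Each of the 5 held a single match, on the minus strand of the gene in every case (TTATCT or TTATCA as printed). The CACCC-type word CCNCNCCC, also on both strands, was present in the windows of Alas2 and Gata1 and in 49.5% of all windows. The matches are letters in a window and not measured binding sites.

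The 30 bases around the GATA match are printed for Epb42, Trim10 and Rhag, which fell, and Klf1, which did not pass. These 4 stretches read 5′ to 3′ on the gene's own strand with the match in capitals, and are too few to relate flanks to a fall. They lie at chr2:121037086-121037115 (minus strand), chr17:36869399-36869428 (plus), chr17:40811106-40811135 (plus) and chr8:84901890-84901919 (plus), and the matches start 226, 163, 31 and 80 bases before the start in the same order.
Epb42: gtctctatttccTTATCTcgttcaaacaga
Trim10: agctcaagagccTTATCTgagtccccacac
Rhag: agtcctctgctcTTATCAacactatacagc
Klf1: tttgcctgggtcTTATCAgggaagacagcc

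The Alas2 promoter is printed over all 250 bases before the start, chrX:150547167-150547416 on the plus strand, because it alone held both words. The first run of capitals is the GATA match, 86 bases before the start, and the later runs are 4 CACCC-type matches between it and the start, of which the first 3 overlap and the last stands apart by 1 base.
Alas2: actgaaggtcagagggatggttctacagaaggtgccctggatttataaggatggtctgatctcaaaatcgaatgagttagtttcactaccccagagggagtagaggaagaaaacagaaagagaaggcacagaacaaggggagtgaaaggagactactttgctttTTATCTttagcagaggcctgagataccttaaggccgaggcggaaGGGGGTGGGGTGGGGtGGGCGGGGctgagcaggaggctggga

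The arrays kept a similar order in most of the genes. Mutant 2 was the lowest array in Alas2, Slc4a1, Epb42, Trim10 and Gata1, and control 2 the highest in Alas2, Slc4a1, Epb42 and Trim10. Averaged over the 7 genes, the deviation from each gene's mean was -0.27, -0.35 and -0.21 in mutants 1 to 3 and 0.15, 0.42 and 0.25 in controls 1 to 3. As a description over 6 arrays that share the same 2 groups, Pearson's r between a gene and the mean of the other 6 was 0.99 for Slc4a1 and Trim10, 0.97 for Alas2, 0.95 for Epb42, 0.89 for Rhag, 0.72 for Gata1 and 0.32 for Klf1. The controls spread widely in the brightest members: the SD over 3 controls was 0.37 in Alas2, larger than in 99.7% of genes, and 0.32 in Slc4a1, larger than in 99.5%. In mutants the SD was 0.03 and 0.17.

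**Figure D2:**
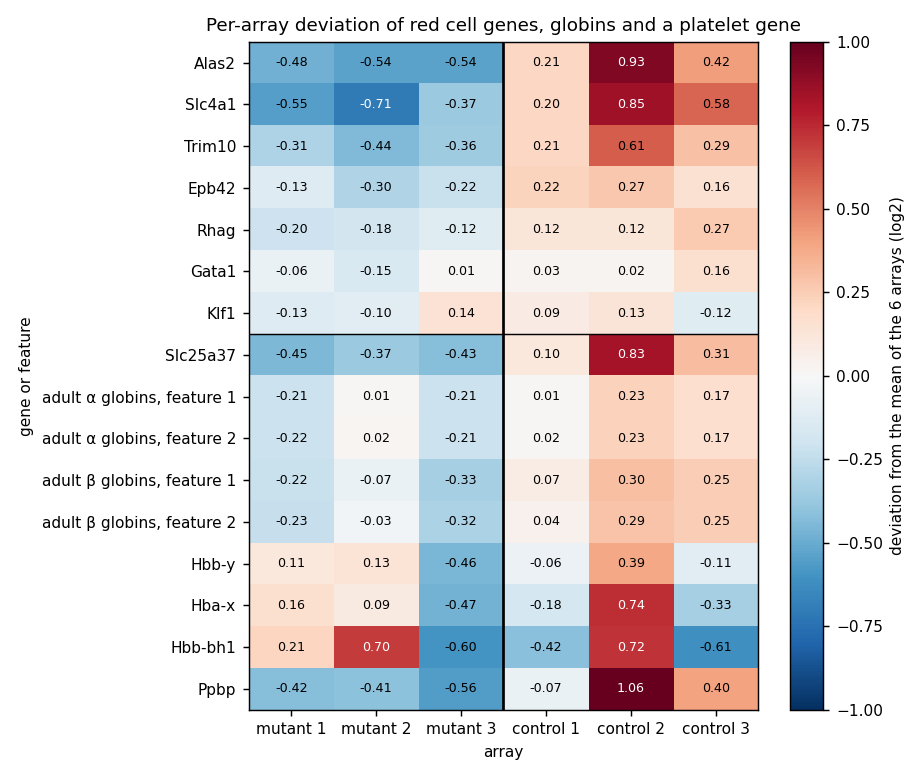
Deviation of each gene or feature from its mean over the 6 arrays, in log2 units, with mutant arrays left of control arrays; the line separates the 7 red cell genes from other genes of blood. Alas2, Slc4a1, Trim10 and Slc25a37 are negative in every mutant and positive in every control, whereas Hbb-y, Hba-x and Hbb-bh1 are positive in mutants 1 and 2 and in control 2. Both adult β globin features are also negative in every mutant and positive in every control, and both adult α globin features differ from that only in mutant 2.

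The globin genes with a feature of their own did not follow this pattern as a group. Of the 6 globin genes with a feature of their own, 0 passed in limma (1 at an unadjusted p under 0.05, Hbb-bh2, at -0.28 ± 0.10, adjusted p = 0.164). Hbb-y, the embryonic beta-like globin of primitive red cells, read 12.21, 12.23 and 11.64 in mutants, against 12.04, 12.49 and 11.98 in controls (-0.14 ± 0.18, adjusted p = 0.765). Its mutants 1 and 2 lay above controls 1 and 3. The embryonic alpha-like globin Hba-x read 10.95, 10.88 and 10.32 in mutants and 10.62, 11.53 and 10.46 in controls (-0.15 ± 0.28, adjusted p = 0.841). A further embryonic beta-like globin, Hbb-bh1, read 7.61, 8.09 and 6.80 in mutants and 6.98, 8.12 and 6.78 in controls (0.21 ± 0.40, adjusted p = 0.849). In these 3 genes the groups overlapped, control 2 was the highest array, and mutant 3 was low beside mutants 1 and 2. The 95% intervals, from -0.57 to 0.28 for Hbb-y, -0.80 to 0.50 for Hba-x and -0.72 to 1.14 for Hbb-bh1, are wide enough to hold moderate changes either way. The theta-like genes Hbq1a (-0.05) and Hbq1b (0.09) did not pass, with adjusted p of 0.765 and 0.578.

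Adult globins had no feature of their own. They share 4 features, each annotated with several near-identical genes that these probes cannot separate, and these features entered the alternative fit over all 35556 features. The 2 alpha globin features stood at -0.27 ± 0.09 each (adjusted p = 0.218 and 0.231). The 2 beta globin features stood at -0.41 ± 0.09 and -0.39 ± 0.10 (adjusted p = 0.0851 and 0.129), and the first of them read 12.73, 12.88 and 12.62 in mutants, against 13.02, 13.25 and 13.20 in controls, without overlap. None of the 4 passed in this limma fit, whose adjustment covers more features than the 19946 genes of the main test. All 4 had unadjusted p under 0.05 (0.00379 to 0.0232). The 5 red cell genes called in the main test also passed in this fit, among them Epb42 at -0.43 (adjusted p = 0.024). At least 99.52% of features read lower than each of the 4 adult globin features, so their differences may be compressed at the bright end, which was not tested.

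The falls of Alas2 and Slc4a1 were set against the embryonic globins within the same arrays, a comparison chosen after these values were seen. Hbb-bh1 and the adult globin features, which stood at -0.27 to -0.41, were not used in it. The log2 deviation of Alas2 minus that of Hbb-y was -0.59, -0.67 and -0.08 in mutants 1 to 3 and 0.27, 0.54 and 0.54 in controls 1 to 3. The change of Alas2 was thus 0.89 units more negative than that of Hbb-y (a difference of -0.89), with no overlap between groups and mutant 3 nearest to the controls. The same difference was -0.89 for Alas2 minus Hba-x and -0.95 for Slc4a1 minus Hbb-y, and -0.96 for Alas2 minus Alas1, its ubiquitous isozyme. In each of these 4 comparisons an exact two-sided permutation test over the 6 arrays gave p = 0.1 (0.1 after Benjamini-Hochberg adjustment), the smallest p that 3 against 3 allows. These tests cannot reach the threshold.

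Around these 7 genes, 77 other erythroid genes were measured, out of 87 entries in 6 lists. In mutants 9 of them were lower (11.7%, against 3.83% of all genes), 3 were higher (3.9%, against 3.84%) and 65 did not pass, and their median difference was -0.02. With all 35556 features tested, 2 were lower (Xk and Bpgm) and 1 was higher (Car2), and Car2 was also the only higher one under quantile normalization applied again, median centring or embryo sex as a covariate. With single arrays left out, 3 to 9 were lower (3 without control 2 or control 3, and 4 without mutant 3) and 1 to 3 higher. Whole lungs were read, so neither the falls nor the rises in these lists can be assigned to red cells alone.

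**Figure D3:**
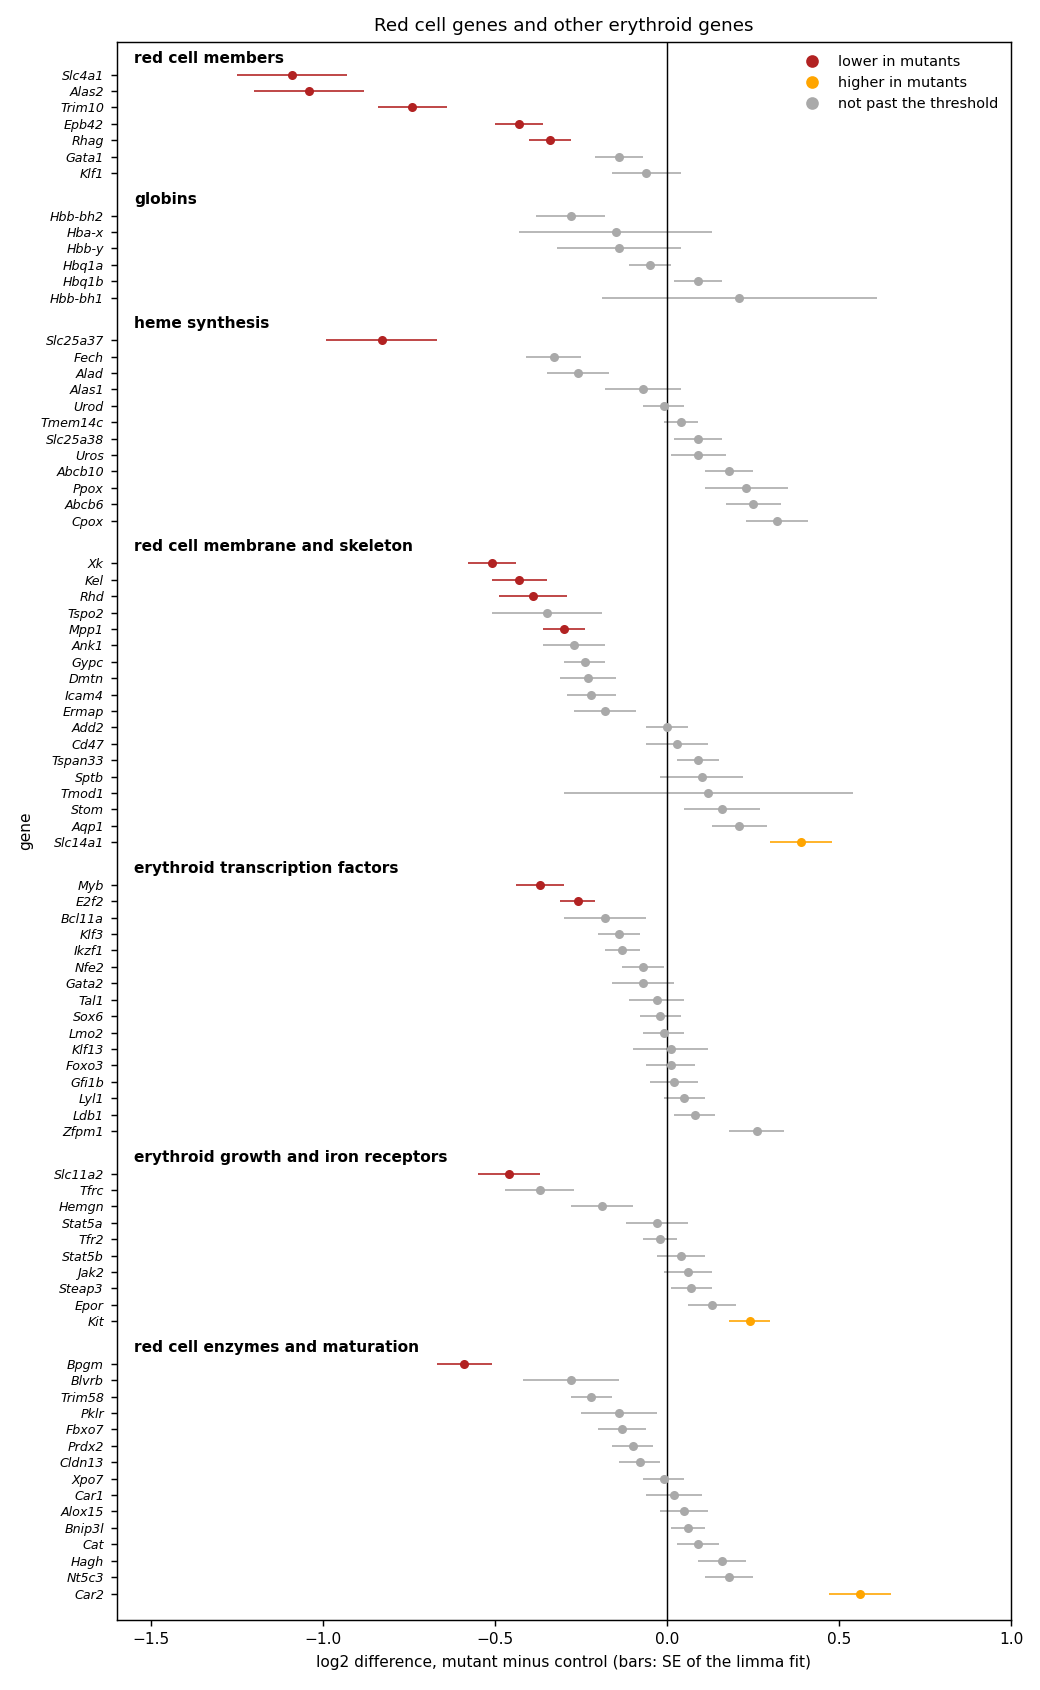
Log2 difference, mutant minus control, of the 7 red cell genes and of 77 other erythroid genes in 6 lists, with the SE of the limma fit as bars; colours show the genes that passed the threshold in either direction. The red cell genes hold the largest falls, Slc4a1 at -1.09 and Alas2 at -1.04, and Slc25a37 at -0.83 leads the other lists.

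In the heme synthesis list, 1 of 12 genes fell, 0 rose and 11 did not pass (median 0.06). For this list and those below, the shares over all genes were 3.83% lower and 3.84% higher. The gene that fell, Slc25a37, encodes mitoferrin 1, which brings iron into the mitochondria of red cells for heme. It averaged 9.03 ± 0.04 (SD, n = 3) in mutants, the highest at 9.08, against 9.55, 10.28 and 9.76 in controls 1 to 3, with control 2 far above the rest as in Alas2. The difference was -0.83 ± 0.16, or 1.78-fold (adjusted p = 0.0196), and the call ended without mutant 3 or control 3 (adjusted p up to 0.0623). The ubiquitous isozyme Alas1 read 9.09, 9.58 and 9.30 in mutants and 9.40, 9.43 and 9.37 in controls (-0.07 ± 0.11, adjusted p = 0.806). Ferrochelatase (Fech), named after its value was seen, inserts the iron and stood at -0.33 ± 0.08 (adjusted p = 0.0518). Fech was called lower under quantile normalization applied again and median centring, but not with embryo sex as a covariate (adjusted p = 0.0894).

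In the membrane and skeleton list, 4 of 18 genes fell, 1 rose and 13 did not pass (median -0.20). The blood group proteins Xk (-0.51 ± 0.07, adjusted p = 0.00388) and Kel (-0.43 ± 0.08, adjusted p = 0.016), which pair in the red cell membrane, were lower. Rhd, the Rh protein that assembles with Rhag, was lower as well (-0.39 ± 0.10, adjusted p = 0.048), and so was the membrane scaffold Mpp1, named after its value was seen (-0.30 ± 0.06, adjusted p = 0.0195). The features of Rhd and Kel are dim (28.6% and 27% of genes read lower), so the sizes of their differences are uncertain. The gene that rose was the urea transporter Slc14a1 (0.39 ± 0.09, adjusted p = 0.041), which other cells also express. Xk kept its call with any array left out. Adjusted p reached 0.0792 for Kel (calls ended without mutant 3, control 2 or control 3), 0.0888 for Mpp1 (without any of the controls), 0.155 for Rhd (any array but control 1) and 0.157 for Slc14a1 (mutant 1 or any control). With embryo sex as a covariate, the calls of Rhd (adjusted p = 0.0804) and Slc14a1 (adjusted p = 0.0653) ended too.

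Among 16 erythroid transcription factors, 2 fell, 0 rose and 14 did not pass (median -0.02). Myb, a factor of immature erythroid and other dividing progenitors, stood at -0.37 ± 0.07 (adjusted p = 0.0199) and the cell cycle factor E2f2 at -0.26 ± 0.05 (adjusted p = 0.0264). Their adjusted p reached 0.0938 for Myb (calls ended without mutant 3, control 1 or control 2) and 0.123 for E2f2 (any array but mutant 2). Of 10 growth factor and iron receptors, Slc11a2, the iron transporter DMT1, fell (-0.46 ± 0.09, adjusted p = 0.0217) and the stem cell factor receptor Kit rose (0.24 ± 0.06, adjusted p = 0.0488), with 8 that did not pass (median 0.01). The calls ended without mutant 3 or any control for Slc11a2 (adjusted p up to 0.0958) and with any array left out but mutant 1 for Kit (up to 0.185). The Kit call also ended with embryo sex as a covariate (adjusted p = 0.082). Of 15 enzymes and maturation genes, 1 fell, 1 rose and 13 did not pass (median -0.01). Bpgm, which makes the 2,3-bisphosphoglycerate that lowers the oxygen affinity of hemoglobin, was 1.51-fold lower (-0.59 ± 0.08, adjusted p = 0.004), at 7.50, 7.68 and 7.51 in mutants and 8.16, 8.28 and 8.03 in controls. The carbonic anhydrase Car2, abundant in red cells and in other tissues, was 1.48-fold higher (0.56 ± 0.09, adjusted p = 0.00633). Bpgm and Car2 passed with any array left out.

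The genes most like the red cell profile were those with the highest Pearson's r over the 6 arrays with its mean deviation, out of 8926 genes that varied at least as much as the least variable member. They were Gpr75, Mctp2, Tbc1d23, Lrguk, Mamdc2, Rorb, Ctse, Pdzk1ip1, Plxnb1 and Myh14, with r from 0.986 to 0.998. All 10 were called lower in mutants, and control 2 was the highest array in each of them. Both counts follow largely from the selection, since the profile itself separates the groups and is highest in control 2. Ctse, the cathepsin E gene, had the largest difference of the 10 (-1.94 ± 0.15), at 6.06, 5.95 and 5.97 in mutants and 7.65, 8.30 and 7.85 in controls. The likeness follows the group difference as well as the order within groups, since the 6 arrays are 2 groups of 3.

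Markers of other cells were read beside these results. Over all genes, 3.83% were called lower and 3.84% higher, and 3957 of 19946 had an unadjusted p under 0.05 in limma. Of 7 megakaryocyte and platelet genes, 0 passed in limma (1 at an unadjusted p under 0.05), and their mean log2 level was 6.79 to 6.86 in mutants and 6.84 to 7.21 in controls, highest in control 2. Ppbp, a platelet chemokine gene named after its value was seen, moved like the red cell genes, at 7.38, 7.40 and 7.25 in mutants and 7.74, 8.87 and 8.21 in controls, but did not pass (-0.93, adjusted p = 0.0587). The list as a whole did not move with Ppbp, at a median difference of -0.08. All mutants lay below all controls in 3 of its 7 genes, against 12.6% of all genes. The platelet chemokine gene Pf4, also named after its value was seen, stood at 0.20 (adjusted p = 0.476). Of 11 macrophage genes 3 rose, 0 fell and 8 did not pass, with a mean level of 7.56 to 7.79 in mutants and 7.35 to 7.55 in controls. Endothelial genes did not pass (0 of 11, with 2 at an unadjusted p under 0.05), with a mean level of 9.79 to 9.98 in mutants and at least 9.98 in controls. Granulocyte genes did not pass either (0 of 9, with 1 at an unadjusted p under 0.05), at 5.46 to 5.68 in mutants and 5.63 to 5.68 in controls. Of 8 lung epithelial genes 5 fell and 0 rose, with means of 8.80 to 8.98 in mutants and 10.07 to 10.09 in controls. Of 7 lung mesenchyme genes 1 fell and 0 rose, with means of 10.63 to 10.82 in mutants and 10.80 to 10.81 in controls. Heart muscle genes (0 of 10 called, 0 at an unadjusted p under 0.05) stood apart in mutant 1, at a mean of 8.38 against 6.77 to 6.83 in the other mutants and 7.22 to 7.26 in controls. Liver genes, markers of the organ in which definitive red cells form, were dim in both groups (5.61 to 5.72 in mutants and 5.70 to 5.79 in controls, with 1 of 9 lower). The part of these cells in the red cell result was not tested.

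The series as a whole bears on these values in a few ways. Array medians lay between 6.70 and 6.79, and the lowest correlation between arrays was 0.994 within mutants and 0.998 within controls. Of the targeted genes, Foxp2 (-0.95, adjusted p = 4.75e-05) and Foxp4 (-0.64, adjusted p = 0.00591) were lower in mutants, and Foxp1 did not pass (-0.31, adjusted p = 0.0661). By Xist and Y-linked genes, mutant 3 and control 3 were male and the other 4 embryos female, and with sex as a covariate the X-linked Alas2 remained at -1.04 (adjusted p = 0.0153) and the X-linked Gata1 at -0.14 (adjusted p = 0.277).

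The array's own globin level was also entered as a covariate, an alternative chosen after seeing the data. The mean of the 3 embryonic globins was 10.26, 10.40 and 9.59 in mutants 1 to 3 and 9.88, 10.71 and 9.74 in controls 1 to 3, so the groups overlapped. With it in the fit the same 5 genes passed, Alas2 at -1.03 ± 0.13 (adjusted p = 0.00446) and Slc4a1 at -1.09 ± 0.16 (adjusted p = 0.0107). The mean of the 4 adult globin features was 12.59, 12.80 and 12.54 in mutants and 12.85, 13.08 and 13.02 in controls, without overlap. With that level in the fit 0 of the 7 genes passed in limma (4 at an unadjusted p under 0.05) and the standard errors grew: Alas2 stood at -0.65 ± 0.28 (adjusted p = 0.304), Slc4a1 at -0.91 ± 0.31 (adjusted p = 0.221) and Trim10 at -0.60 ± 0.20 (adjusted p = 0.213). Epb42 at -0.51 ± 0.13 (adjusted p = 0.108) and Rhag at -0.33 ± 0.13 (adjusted p = 0.263) were about as large as without the covariate, with wider errors. That fit called 355 genes in all, against 1528 without a covariate, and a covariate that separates the groups cannot be told apart from genotype.

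**Figure D4:**
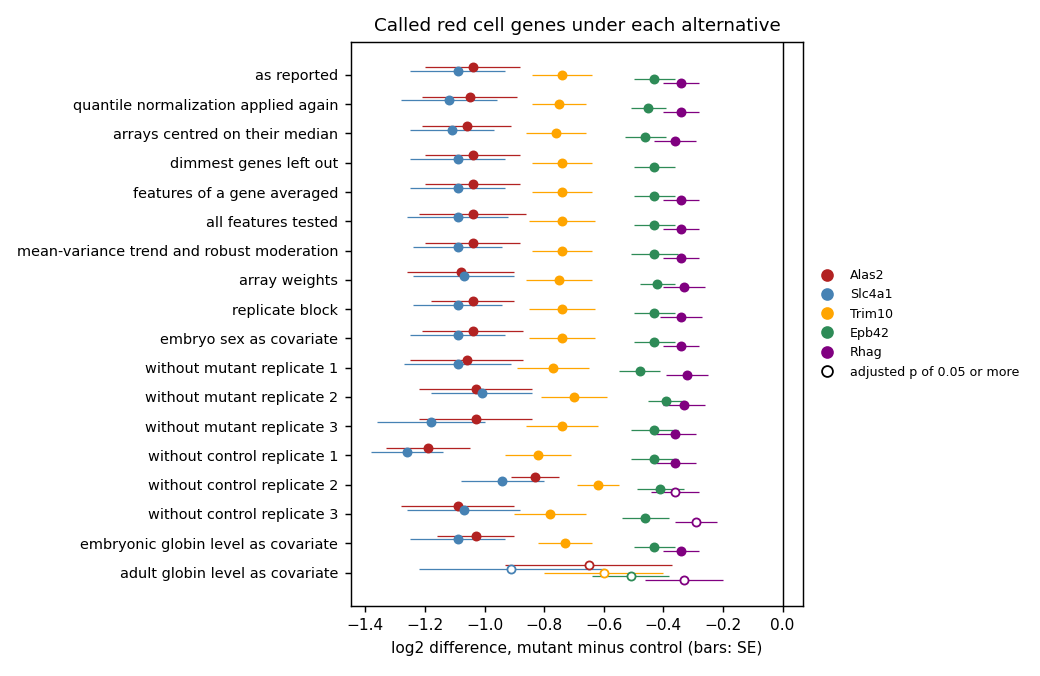
Log2 difference, mutant minus control, of the 5 red cell genes that passed, as reported and under each alternative with its own fit, with SE bars; open circles mark an adjusted p of 0.05 or more. Every value is below 0, and open circles appear for Rhag without control 2 or control 3 and for all 5 genes with the adult globin level as covariate.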

How the data were processed

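Per the labels' protocols, total RNA of whole lungs was copied with an oligo(dT) primer carrying a T7 promoter, amplified and biotin-labelled. The authors deposited log2 values; the submitters' processing notes name oligo, RMA and limma without versions. Their settings and the genome build are not given in the sources used. RMA compresses large and dim differences. With no detection calls, precision rests on the 3 arrays of each group. The p-values set each difference against the spread between these embryos, which limma moderates with the spread of all genes.

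Of 35556 features, 21797 carried 1 gene symbol, 1613 several and 12146 none here. The feature with the highest mean stood for each of 19946 genes. Mutant and control arrays were compared with limma 3.58.1 in R 4.3.3 (lmFit, eBayes, genotype as the only term, two-sided, 7.96 moderated degrees of freedom), with Benjamini-Hochberg adjustment over all genes, and tested on simulated data. Of the genes tested, 3957 had an unadjusted p under 0.05.

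The members, gene lists and alternatives were chosen with earlier results of these data known. The named genes are the members, all globins with their own feature, up to 4 called genes per other erythroid list with the largest difference, and the 10 genes most like the members' profile (unnamed gene models left out). Other names are marked as chosen after their values were seen. Alas1 (the isozyme of Alas2), the adult globins, the targeted Foxp genes and Xist fall outside these rules and carry no such mark. In the heart, liver and other marker lists only counts and levels are given. Sequences are from RefSeq, GRCm38.p6.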

Additional observations from a re-analysis of the deposited data

How the results depend on the processing

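Alas2, Slc4a1, Epb42 and Trim10 kept their direction and their call under quantile normalization applied again, median centring, leaving out the dimmest genes, averaging features, testing all features, array weights, robust moderation with a mean-variance trend, the replicate block, embryo sex, a threshold of 0.1, the embryonic globin covariate and each array left out. Their calls, and that of Rhag, ended with the adult globin covariate, where 0 of the 7 genes passed (355 genes in all), although Epb42 (-0.51) and Rhag (-0.33) were about as large as reported. Leaving out the dimmest genes removed Klf1, Gata1 and Rhag from the test. The count of red cell genes passing was 4 to 5 with single arrays left out, and that of all genes 774 to 1745, lowest without control 3 (774), control 2 (793) and control 1 (876). The replicate numbers of the titles were not treated as pairs: same-numbered arrays correlated at -0.07, 0.05 and 0.15 in their deviations from the group means, and the replicate block left 5 red cell genes and 1137 genes in all. Of the 77 other erythroid genes, 8 were lower and 1 higher with the block. The calls of Rhd (adjusted p = 0.0597), Mpp1 (0.0583), Slc14a1 (0.0844), E2f2 (0.0822) and Kit (0.122) ended. The 8 include Fech (adjusted p = 0.0491) and Tfrc (0.0466, named after its value was seen), which did not pass in the main test. Dim features limit what Klf1, Gata1, Rhag, Rhd and Kel can show.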
